A study of Mus musculus with 6 samples.

Results

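Ebf1, Ebf2, Ebf3 and Ebf4 make up the early B-cell factor family of transcription factors, and their messenger RNAs were followed here in whole mouse retina. All 7 probes that the platform annotation assigns to the family were taken, out of 45281 probes on the array. They comprise 3 probes for Ebf1, 2 for Ebf2 and 2 for Ebf3. Ebf4 has 0 annotated probes and is not analysed here. Each probe is given on its own, because probes of a gene did not move alike. The arrays came from 3 samples of Vldlr knockout retina (Vldlr KO) and 3 samples of wild-type retina (Jax WT), with 1 Illumina BeadChip array per sample. The product of Vldlr is the receptor for very low density lipoprotein particles. The labels give JAX as background strain for both groups and state neither the knockout allele, the age nor the sex of the mice, so a strain difference cannot be told apart from the genotype. Separate animals are not mentioned for the 3 samples of a group, so every error and p-value describes sample-to-sample spread that could be purely technical.

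The family was selected on measured values, since its proposal followed earlier results of the same knockout and wild-type comparison, in which an Ebf1 probe was lower. The differences of Ebf probes between the groups are therefore given as a description, with no test, and where Ebf probes are counted against a threshold the count supports nothing.

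EBF proteins are helix-loop-helix factors with a DNA-binding domain of their own kind, which holds a zinc ion, and they bind palindromic sites as dimers. Ebf1 is best known as a factor that commits blood precursors to the B-cell lineage. The family is also called Olf/EBF because its members act in olfactory neurons, and Ebf2 is known for its part in brown fat cells. In the mouse retina EBF factors are known from subsets of ganglion, amacrine, bipolar and horizontal cells, and Ebf1 also from mural and mesenchymal cells elsewhere.

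The windows around the annotated start sites of the genes with a probe above background, Ebf1 and Ebf3, are shown because the probes of each gene disagree and Ebf1 has more than 1 annotated start. The sequences are RefSeq's for build GRCm38.p6 and run from 250 bases before the start to 50 after it. Capitals mark CCCNNGGG, the palindromic core of the site that EBF dimers are known to bind, which reads the same on both strands. The first Ebf1 window lies at chr11:44617850-44618149 on the plus strand, the second at chr11:44619978-44620277 on the plus strand, 2128 bases further on, and the Ebf3 window at chr7:137314396-137314695 on the minus strand.
Ebf1, first start: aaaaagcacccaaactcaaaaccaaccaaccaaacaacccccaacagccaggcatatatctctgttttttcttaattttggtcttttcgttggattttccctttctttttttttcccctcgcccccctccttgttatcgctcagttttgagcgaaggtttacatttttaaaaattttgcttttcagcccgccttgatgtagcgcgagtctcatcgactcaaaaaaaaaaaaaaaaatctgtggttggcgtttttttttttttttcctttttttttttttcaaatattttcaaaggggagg
Ebf1, second start: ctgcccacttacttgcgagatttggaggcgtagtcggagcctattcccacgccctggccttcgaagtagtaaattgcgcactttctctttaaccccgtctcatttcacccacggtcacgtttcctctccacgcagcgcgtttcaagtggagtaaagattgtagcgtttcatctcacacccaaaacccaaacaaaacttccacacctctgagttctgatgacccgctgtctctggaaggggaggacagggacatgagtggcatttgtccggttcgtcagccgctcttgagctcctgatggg
Ebf3: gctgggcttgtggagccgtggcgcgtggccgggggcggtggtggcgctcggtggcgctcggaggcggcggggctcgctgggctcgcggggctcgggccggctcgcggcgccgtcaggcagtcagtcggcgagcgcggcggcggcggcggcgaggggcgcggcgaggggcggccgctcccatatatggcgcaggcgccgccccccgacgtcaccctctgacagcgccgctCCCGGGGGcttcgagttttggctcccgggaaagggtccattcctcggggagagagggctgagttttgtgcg
The core stood once in the Ebf3 window, 21 bases before the start, and in neither Ebf1 window. Of 32851 windows of this length in the table, 13.7% held it. The Ebf3 window had 77.0% G and C, the first Ebf1 window 36.7% and the second 53.0%, against a median of 52.7% over all windows. A match is only a description of these letters. The array was not given with probe sequences here, so it is not known which exons or which start's transcripts each probe reports.

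The probe signals are given on the log2 scale after background correction and quantile normalization, and a probe counts as detected on an array when its detection p against the negative controls is under 0.05. A probe entered the fit when it was detected on 3 or more of the 6 arrays, which held for 4 of the 7 Ebf probes and for 19921 probes in all. Detection rates were close between arrays, at 42.7% to 45.8% of probes in Vldlr KO and 41.3% to 46.3% in Jax WT. Vldlr itself was lower in knockout retina by 1.17, 1.22 and 1.26 on its brighter probes (limma adjusted p = 0.00946, 0.0334 and 0.0265). Its dim probes ILMN_1230923 and ILMN_2458671 were not lower, at 0.23 and 0.02 (limma adjusted p = 0.857 and 0.992). The position of the Vldlr probes relative to the targeted exons was not given. Jax WT replicate 1 correlated more closely with the knockout arrays (median r of 0.977 across probes) than with its own group (0.971). Rod genes were detected in both groups, with 8 of 8 rod marker genes that have a named probe entering the fit. Lens transcripts were uneven, with a summed signal of 40683 in Vldlr KO replicate 1, against 2217 and 2942 in the other knockout arrays and 1051 to 6590 in Jax WT.

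Of the Ebf1 probes, ILMN_1245076 was the one with lower signal in all knockout arrays. Its log2 signal was 5.99, 5.80 and 5.74 in Vldlr KO retinas, against 6.69, 6.58 and 7.23 in Jax WT retinas. The groups did not overlap, the knockout arrays lay close together, and Jax WT replicate 3 was the highest of all. The means were 5.84 ± 0.13 in Vldlr KO and 6.83 ± 0.35 in Jax WT (SD, n = 3 each), a difference of -0.99 (moderated SE 0.21), which left 50.4% of the wild-type signal on this scale. The deposited intensities before any correction were 97.7, 96.2 and 114.2 in Vldlr KO and 142.1, 147.0 and 203.5 in Jax WT, so the separation was present before normalization. After the authors' background subtraction they averaged 41.8 ± 5.8 in Vldlr KO and 98.7 ± 39.8 in Jax WT (SD, n = 3 each). Only this Ebf1 probe was lower in this way, and the exons it reports are not known. It therefore does not settle whether Ebf1 RNA as a whole was lower. In bulk retina, fewer cells that express the RNA it reports and less of that RNA per cell cannot be told apart. The probe was detected on all 6 arrays. The annotation ties it to a cDNA entry that is not a RefSeq transcript.

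The Ebf1 probe tied to the gene's RefSeq transcript, ILMN_2707452, did not separate the groups. Its log2 signal was 4.94, 4.76 and 5.36 in Vldlr KO retinas, against 4.30, 5.01 and 5.15 in Jax WT retinas. The groups overlapped, and the lowest value was that of Jax WT replicate 1, where the probe was not detected. It was detected on 2 of 3 arrays in Vldlr KO and 2 of 3 in Jax WT. Its detection p ran from 0.00107 to 0.0609 in Vldlr KO and from 0.00427 to 0.858 in Jax WT, so its distance from background differed between arrays. The means were 5.02 ± 0.31 in Vldlr KO and 4.82 ± 0.45 in Jax WT (SD, n = 3 each), a difference of 0.20 (SE 0.26), and without Jax WT replicate 1 it was -0.06. The last Ebf1 probe, ILMN_2573212, was detected on 0 of 6 arrays, with log2 signals of 4.25 to 4.42 in Vldlr KO and 4.22 to 4.27 in Jax WT. Of the 3 Ebf1 probes, 1 was thus lower in every knockout array.

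Ebf2 was at background in both groups. Probe ILMN_1251248 read 4.55, 4.60 and 4.53 in Vldlr KO retinas, against 4.68, 4.98 and 4.60 in Jax WT retinas, and only Jax WT replicate 2 passed detection. Probe ILMN_2883606 read 4.27 to 4.47 in Vldlr KO and 4.19 to 4.44 in Jax WT and was detected on 0 arrays. No difference of Ebf2 between the groups was therefore measurable on these probes.

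**Figure D1:**
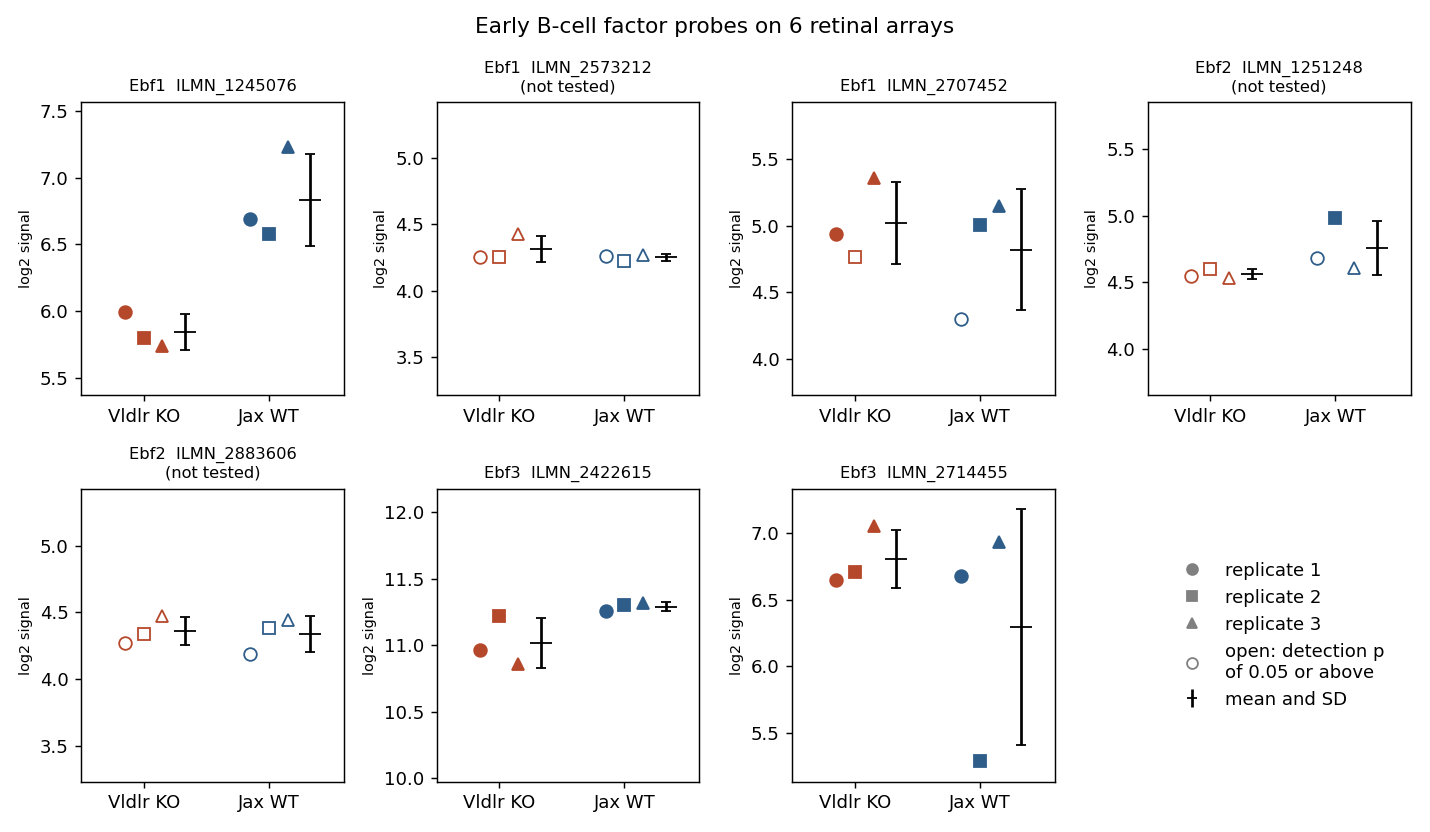
Log2 signal of the 7 Ebf probes in Vldlr KO and Jax WT arrays; each point is 1 array, filled where detected, with the mean and SD of the group beside it. Each panel has its own axis range. The groups stand apart by 0.99 for Ebf1 ILMN_1245076 and by 0.28 for Ebf3 ILMN_2422615, and Jax WT replicate 2 lies far below the other arrays for Ebf3 ILMN_2714455.

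Ebf3, a close relative of Ebf1, had a bright probe and a dim one. The bright probe ILMN_2422615 read 10.97, 11.22 and 10.86 in Vldlr KO retinas, against 11.26, 11.30 and 11.31 in Jax WT retinas. All knockout arrays lay below all wild-type arrays, although Vldlr KO replicate 2 came within a few hundredths of Jax WT replicate 1. The means were 11.02 ± 0.19 in Vldlr KO and 11.29 ± 0.03 in Jax WT (SD, n = 3 each), a difference of -0.28 (SE 0.17) or 82.6% of the wild-type signal. In the uncorrected intensities the groups overlapped, with 1826, 2535 and 2106 in Vldlr KO and 2309, 2754 and 2495 in Jax WT, so the order of the arrays rests on the normalization.

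The dim Ebf3 probe ILMN_2714455 pointed the other way and rested on 1 array. It read 6.65, 6.71 and 7.05 in Vldlr KO retinas, against 6.68, 5.29 and 6.93 in Jax WT retinas. Apart from Jax WT replicate 2, the arrays of both groups shared the same range. The means were 6.81 ± 0.22 in Vldlr KO and 6.30 ± 0.89 in Jax WT (SD, n = 3 each), a difference of 0.51 (SE 0.39) that was -0.00066 without Jax WT replicate 2. Both Ebf3 probes are tied to the same RefSeq entry, and both were detected on all 6 arrays.

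Over all 19921 probes, 2.18% passed limma at an adjusted p of 0.05, 0.653% higher and 1.53% lower in Vldlr KO. Of the 4 tested Ebf probes 0 passed it, and 1, ILMN_1245076 of Ebf1, was under an unadjusted p of 0.05, as were 11.7% of all tested probes. The groups did not overlap for 2 of the 4, both lower in Vldlr KO, against 18.1% of all tested probes in either direction and 8.84% in that direction. Nothing is read from these counts, since the same contrast chose the family. As a description, the difference of Ebf1 ILMN_1245076 ran from -1.18 to -0.63 over 17 alternatives. Those that changed only the filter, the variance model or the probe kept per gene left it at -0.99 by construction. The difference was -0.80 without Jax WT replicate 3, which had the highest value. Leaving out Vldlr KO replicate 1, the array rich in lens transcripts, gave -1.07.

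**Figure D2:**
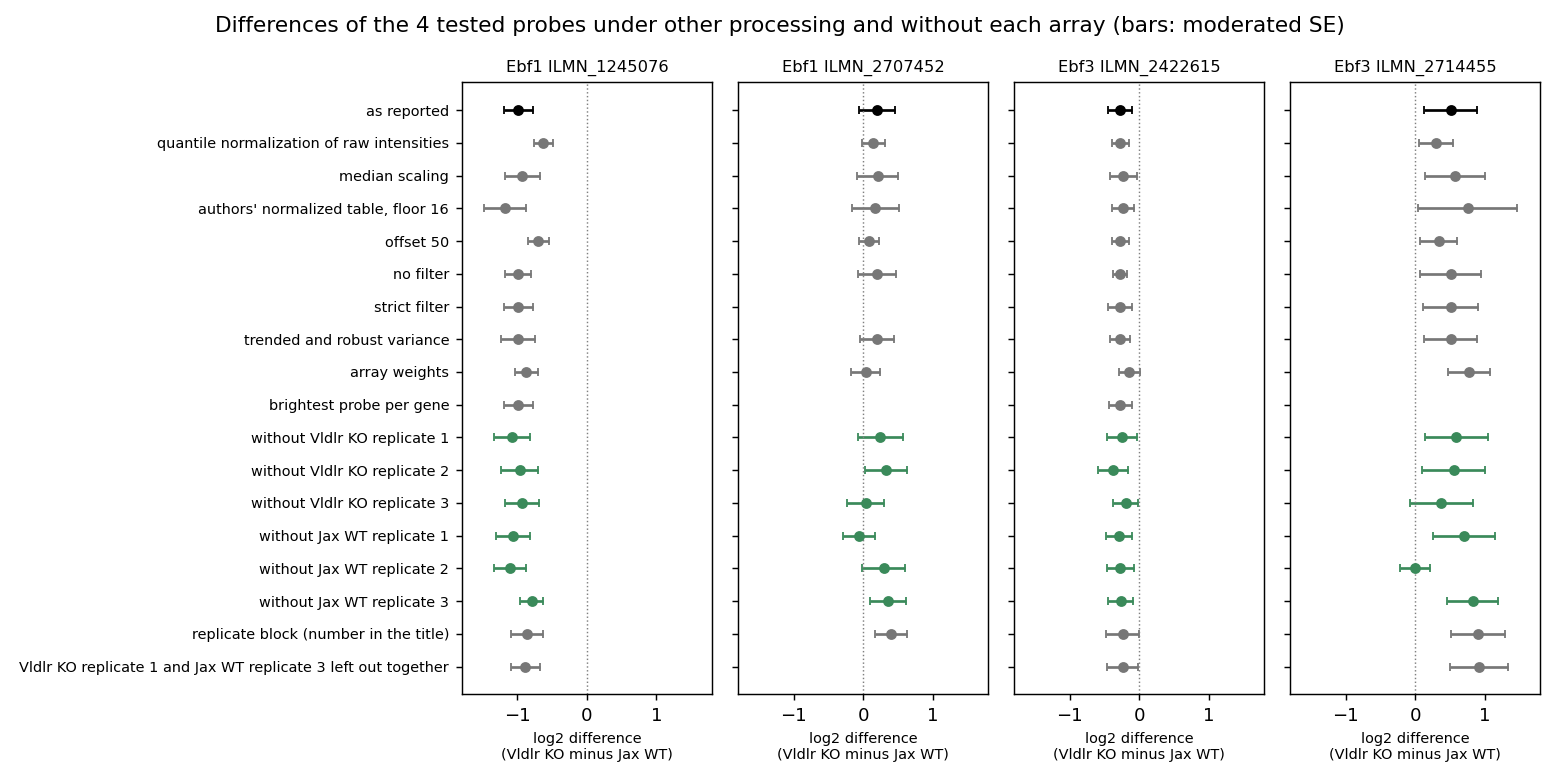
Log2 difference of the 4 tested Ebf probes (Vldlr KO minus Jax WT, bars are moderated SE) as reported, under each other processing and without each array in turn. The points of Ebf1 ILMN_1245076 all lie between -1.18 and -0.63, and the point of Ebf3 ILMN_2714455 falls to zero without Jax WT replicate 2.

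The tested probes of a gene did not follow each other over the 6 arrays, which share their labelling and normalization. Pearson's r was -0.16 between the Ebf1 probes and -0.44 between the Ebf3 probes. The closest pair was Ebf1 ILMN_1245076 with the bright Ebf3 probe ILMN_2422615, with r = 0.74. Among 17019 probes of other named genes, those most like Ebf1 ILMN_1245076 over the 6 arrays were Zmym6 (r = 0.994), Pebp1 (0.993) and Tex9 (0.993), and 1.8% of these probes had r over 0.9. Each r includes the difference between the groups, so probes lower in Vldlr KO were favoured in advance for this Ebf1 probe. Their own differences are thus a description only. Of the 3, Zmym6, a zinc finger gene, was lower by 1.98 on the log2 scale (limma adjusted p = 0.00516). Pebp1, a binding protein of the Raf kinase, was at -0.39 (adjusted p = 0.391) and Tex9 at -1.08 (adjusted p = 0.0529). Those most like Ebf1 ILMN_2707452 were the glycolytic enzyme Pfkm (0.997), Phactr1 (0.986) and Ambra1 (0.979). The bright Ebf3 probe was most like Micall2 (0.995), Extl2 (0.989) and Reln (0.985), the gene of reelin, a ligand of the Vldlr protein, which was at -0.34 (adjusted p = 0.501). The dim Ebf3 probe was most like Trim33 (0.998), Rtn4 (0.997) and Adnp (0.996).

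Genes that work with or upstream of EBF factors did not pass the test. Of 17 tested probes of 12 such genes 0 passed limma and 2 were under an unadjusted p of 0.05 (Id2 and Id3). Over all tested probes these shares were 2.18% and 11.7%. The list had 7 higher and 10 lower in sign and a median difference of -0.08, against 0.03 over all tested probes. Of all tested probes 46.2% were lower in sign. Zfp423, a zinc finger protein that binds EBF1 and hinders it, was at -0.17 and -0.12 on its probes (limma adjusted p = 0.780 and 0.858). Its relative Zfp521 was at 0.18 (adjusted p = 0.766). The E protein gene Tcf3, which acts upstream of Ebf1 in B-cell precursors, was at -0.07 (adjusted p = 0.922). Id2 and Id3 encode inhibitors of E proteins, and their values lay on opposite sides. Id2 averaged 5.65 ± 0.42 in Vldlr KO and 5.01 ± 0.35 in Jax WT (SD, n = 3 each) on 1 probe, a difference of 0.64 (adjusted p = 0.384), and Id3 was at -0.50 (adjusted p = 0.316). Probes of Cnot3, a subunit of the CCR4-NOT complex, ran from -0.55 to 0.47, and 1 of them passed with array weights.

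Few target genes of EBF factors in other tissues entered the fit, and not all of them have a named probe. Of 16 B-lineage target genes 14 have a named probe. Of these, 2 were tested and neither passed, with 0 under an unadjusted p of 0.05. The chemokine receptor Cxcr4 was at -0.29 (limma adjusted p = 0.621) and the forkhead factor Foxo1 at 0.05 (adjusted p = 0.929). Among the genes not tested were Pax5 and Cd79a. Of 6 B-cell marker genes 3 have a named probe, and 0 of these entered the fit. Of 5 olfactory targets 3 were tested and 0 passed limma, with 0 under an unadjusted p of 0.05. The adenylyl cyclase Adcy3 was at -0.20 and Omp, the olfactory marker protein, at -0.20 (adjusted p = 0.709 each), and Gnal, a G protein subunit of olfactory neurons, was at 0.08 (adjusted p = 0.930). Of the fat cell targets Cebpb alone was tested, at -0.49 (adjusted p = 0.421).

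Markers of the retinal cells in which EBF factors are known had 1 call between them. Over all tested probes, 2.18% were called and 11.7% were under an unadjusted p of 0.05. In sign, 46.2% of all tested probes were lower. Nothing about these cells is read from the counts of calls or of signs. For ganglion cells 24 marker probes were tested, of which 1 fell, 0 rose and 3 were under an unadjusted p of 0.05, and the median difference was 0.02, a value near 0 whose sign varied between the alternatives. The probe that fell was ILMN_2939277 of Sncg, which encodes gamma-synuclein. It read 6.38, 5.92 and 5.97 in Vldlr KO retinas, against 8.02, 8.01 and 7.76 in Jax WT retinas, and fell by 1.84 (SE 0.19, limma adjusted p = 0.00103). The groups lay well apart. The brighter Sncg probe was at 0.46 (adjusted p = 0.502), with every knockout array above every wild-type array, so the probes of Sncg disagreed in direction. Pou4f1, a ganglion cell transcription factor, was at 0.52 (adjusted p = 0.444), and Sox4 at -0.91 (adjusted p = 0.375). Rbpms probe ILMN_3026557 was at 0.57 (adjusted p = 0.264), with every knockout array above every wild-type array. The other Rbpms probes ran from -0.02 to 0.22. For OFF cone bipolar markers 0 of 12 probes passed limma and 2 were under an unadjusted p of 0.05, with 10 higher and 2 lower in sign and a median of 0.21, for example Irx6 at 0.47 (adjusted p = 0.266) and Lhx3 at -0.46 (adjusted p = 0.428). For horizontal cells 0 of 6 probes passed and for glycinergic amacrine cells 0 of 17, with 0 under an unadjusted p of 0.05 in either list and medians of -0.22 and 0.06. The summed normalized signal of the ganglion cell list was 26422 to 26692 in Vldlr KO and 27278 to 29889 in Jax WT, so the sum was lower in every knockout array. Sums of other lists separated the groups too. Those of rods and of the neighbours of Ebf genes were higher in every knockout array, and that of microglia was lower. The rod sum was 81286 to 104257 in Vldlr KO and 76405 to 80329 in Jax WT. Bright probes carry most of such a sum, and by sign 12 probes of the ganglion cell list were higher and 12 lower. Whether the ganglion cell sum bears on the difference of Ebf1 ILMN_1245076 was not tested.

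Markers of mural and mesenchymal cells, in which Ebf1 is known elsewhere, had 0 calls as processed here. So did those of microglia, which were not listed as holding Ebf1 RNA. Some markers passed under other processing. For the counts by sign below, 46.2% of all tested probes were lower. Over all tested probes, 2.18% were called and 11.7% were under an unadjusted p of 0.05. Of 16 tested probes of pericyte and smooth muscle markers 0 passed limma and 2 were under an unadjusted p of 0.05, with a median of 0.00302, and their summed signal was 5247 to 5800 in Vldlr KO and 5131 to 5324 in Jax WT. Rgs5, a regulator of G protein signalling in pericytes, was at 2.14 (SE 0.58, adjusted p = 0.142) and passed with array weights and with a replicate block. With that block the difference does not use Vldlr KO replicate 1 or Jax WT replicate 3, the wild-type array where Rgs5 was highest. Pdgfrb, the receptor that recruits pericytes, was at -0.22 (adjusted p = 0.823). Of the mesenchyme and fibroblast markers 3 of 10 genes were tested, with 0 calls by limma, 0 under an unadjusted p of 0.05 and all 4 probes lower in sign, and the summed signal was 266 to 303 in Vldlr KO and 279 to 357 in Jax WT. The microglial list had 9 of 11 tested probes lower in sign and 2 higher, 0 calls by limma, 4 under an unadjusted p of 0.05 and a median of -0.26. Its summed signal was 608 to 635 in Vldlr KO and 719 to 928 in Jax WT, and Trem2, a lipid receptor of microglia, was at -0.76 (adjusted p = 0.0547). Trem2 passed with the authors' table, without a filter, with a strict filter, with array weights, with the brightest probe per gene and at an adjusted p of 0.10, and Cx3cr1 passed with array weights. Whether this bears on the difference of Ebf1 ILMN_1245076 was not tested. Rods, lens, pigment epithelium and erythrocytes, given to show what else the samples held, had 0 calls among 11, 11, 11 and 4 tested probes, with 1, 0, 0 and 1 under an unadjusted p of 0.05 and medians of 0.25, 0.89, -0.01 and 0.67.

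**Figure D3:**
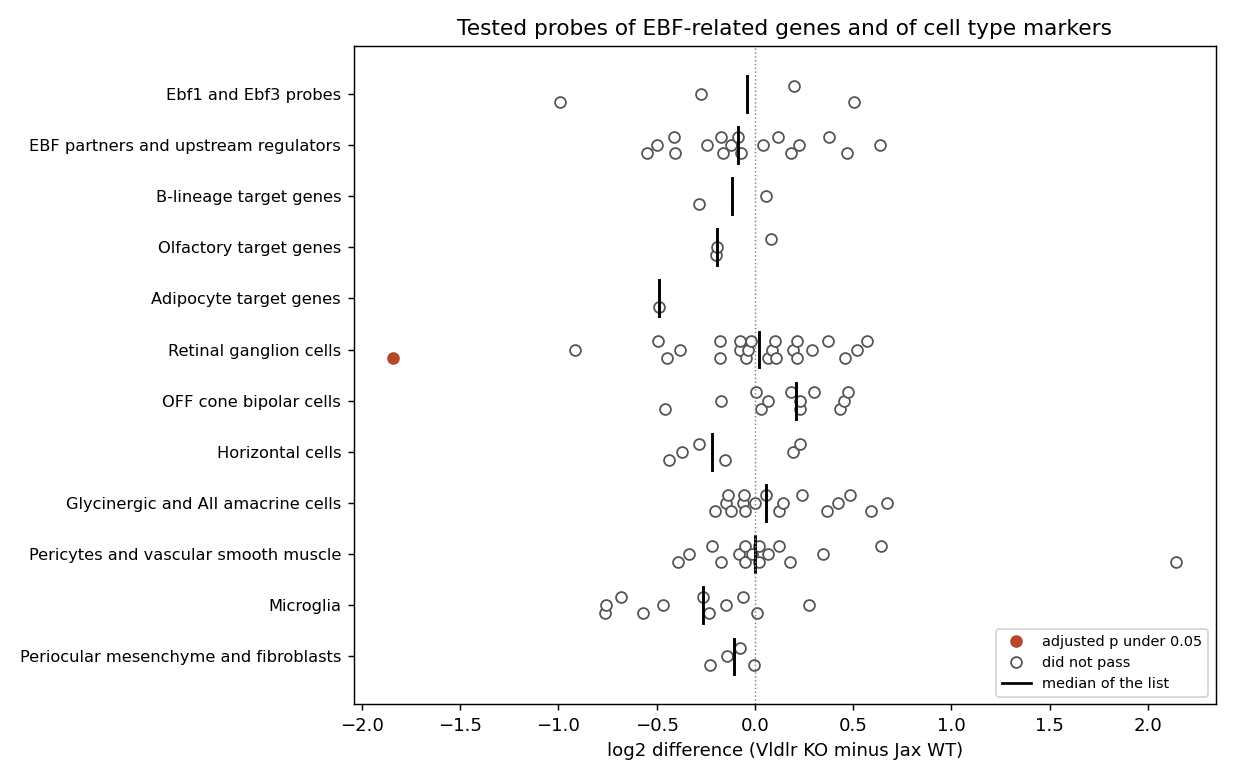
Log2 difference (Vldlr KO minus Jax WT) of each tested probe of Ebf1 and Ebf3, of EBF-related genes and of markers of the cell types in which EBF factors are known and of microglia; filled points passed an adjusted p of 0.05 and bars mark the median of a list. One probe of Sncg, at -1.84, passed; the medians of the lists plotted lie between -0.49, where 1 probe was tested, and 0.21.

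On chromosome 11, a neighbour of Ebf1 rose in knockout retina. Among the 10 nearest named genes with a tested probe, 5 on each side of Ebf1, 1 probe rose and 0 fell by limma out of 12 probes. Of these probes, 3 were under an unadjusted p of 0.05. Around all 4 Ebf genes 1 of 65 probes was called. Over all tested probes, 2.18% were called and 11.7% were under an unadjusted p of 0.05. Thg1l, which encodes an enzyme that adds a guanosine to histidine transfer RNA, lies 2 such genes away. Its probe ILMN_2979430 read 7.86, 7.77 and 7.60 in Vldlr KO retinas, against 5.95, 5.61 and 5.60 in Jax WT retinas. It rose by 2.02 (SE 0.18, limma adjusted p = 0.000405), and the other Thg1l probe was at 0.77 (adjusted p = 0.0591). The groups did not overlap on either, as for 18.1% of all tested probes. On the other side of Ebf1, Ublcp1, a phosphatase of the proteasome, had probes at -0.82 (adjusted p = 0.155) and 0.36 (adjusted p = 0.494). The genes directly beside Ebf1 in this list, Rnf145 and Lsm11, were at -0.11 and 0.01. Around Ebf2, Ebf3 and Ebf4 the same search found 0 calls by limma among 15, 19 and 19 probes, with 2, 0 and 3 under an unadjusted p of 0.05 and medians of 0.10, 0.11 and 0.12.

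**Figure D4:**
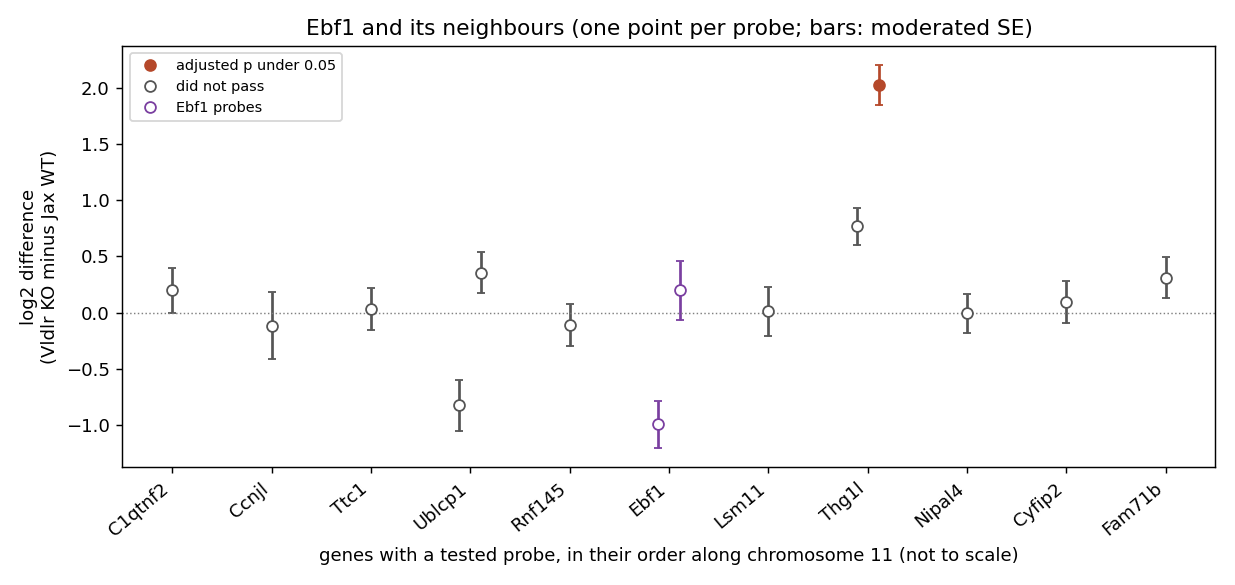
Log2 difference (Vldlr KO minus Jax WT, bars are moderated SE) of each tested probe of Ebf1 and of 5 named genes on each side, in their order along chromosome 11. Ebf1 has a probe at -0.99 and another at 0.20, Thg1l probes stand at 2.02 and 0.77, and the remaining genes lie between -0.82 and 0.36.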

How the data were processed

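Per the file headers, the authors deposited probe intensities on a linear scale and, beside each, a detection p-value; GenomeStudio is named in the submitters' processing notes, with no version given in the sources used here. The deposited table named normalized equals the raw intensities minus a constant per array (57.2 to 69.1). Per the labels' protocols, RNA was extracted with a column kit and made into biotin-labelled cRNA.

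The raw intensities were corrected and normalized with neqc of limma 3.58.1 (R 4.3.3), which infers negative controls from detection, uses an offset of 16 and ends with quantile-normalized log2 values; this compresses changes of dim probes. Every probe was a feature. Groups were compared by limma's lmFit and eBayes with group as covariate (2-sided, Benjamini-Hochberg over 19921 probes). Arrays, 3 per group, limit the precision.

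Symbols came from the platform annotation, and neighbours from the order of genes in GRCm38.p6. The family members and all 17 gene lists were chosen with earlier results of these data known. Up to 4 probes per list with the smallest p, and all that passed, could be named, as could the 3 probes most like each tested Ebf probe; those most relevant are given, and list members such as Tcf3, Foxo1 and Pdgfrb were added for their role. On simulated data with 19921 probes, 36% of changes of 1 and 86% of changes of 2 on the log2 scale were called, and 6 of 115 calls were false. Figures were drawn with matplotlib 3.10.9.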

Additional observations from a re-analysis of the deposited data

How the results depend on the processing

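The Ebf1 probe ILMN_1245076 was at -0.63 with quantile normalization of raw intensities and at -0.70 with an offset of 50, and between -1.10 and -0.80 without 1 array. The bright Ebf3 probe ILMN_2422615 was at -0.14 with array weights and between -0.38 and -0.20 without 1 array. Without 1 array, the differences of the dim probes fell as far as values near 0. Ebf1 ILMN_2707452 ran from -0.06 (SE 0.23) to 0.35, and Ebf3 ILMN_2714455 from -0.00066 (SE 0.21) to 0.82. The number of Ebf probes past the threshold, from which nothing is read because this contrast chose the family, was 1 with array weights, a strict filter, the brightest probe per gene or an adjusted p of 0.10, and 0 without any 1 array. The 435 called probes became 223 with the authors' table, 920 with array weights and 212 without Vldlr KO replicate 1 and Jax WT replicate 3 together (chosen after seeing the data), and 202 to 382 without 1 array (202 without Jax WT replicate 2, 268 without Jax WT replicate 1, and 237, 226 and 270 without Vldlr KO replicates 1, 2 and 3). The 2 calls among all listed genes became 4 without a filter or with a strict one, 5 at an adjusted p of 0.10 and 10 with array weights, and 2 to 4 without 1 array, with 4 when Jax WT replicate 3 was left out. Sncg ILMN_2939277 and Thg1l ILMN_2979430 were called under every alternative in which they were tested. Title numbers were also used as a replicate block, though only 2 pairs share a number and the labels do not explain it. The differences then rest on those 2 pairs alone, without Vldlr KO replicate 1 and Jax WT replicate 3. With this block 282 probes and 4 listed probes were called and Ebf1 ILMN_1245076 was at -0.87. Deviations of same-numbered arrays correlated at -0.02 and -0.27, and no pairing was used in the main fit. The cause of these shifts was not tested. Dim signal over background limits Ebf2 and the dimmer Ebf1 probes.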
